A study of Mus musculus with 6 samples.

Results

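The D cyclins (Ccnd1, Ccnd2, Ccnd3) and the cyclin-dependent kinase (CDK) inhibitors of the Cip/Kip (Cdkn1a, Cdkn1b, Cdkn1c) and Ink4 (Cdkn2a, Cdkn2b, Cdkn2c, Cdkn2d) families were followed in mouse skeletal stem cells of the Achilles tendon-to-bone interface after partial injury. The 10 genes were taken by symbol from the deposited count table of 26130 genes, and each matched exactly 1 row. D cyclins are the growth-factor-responsive partners of Cdk4 and Cdk6, which start the phosphorylation of the retinoblastoma protein and so release E2F transcription factors at the entry into S phase. Ink4 proteins bind Cdk4 and Cdk6 and block their pairing with D cyclins, whereas Cip/Kip proteins bind cyclin-CDK complexes, chiefly those of Cdk2. In the growth plate, cyclin D1 is known to promote and p57 to end the division of chondrocytes.

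RNA was sequenced from stem cells sorted out of digested interfaces of C57BL/6 mice on post-injury day 7. The libraries were 3 from partially injured interfaces, 2 from sham controls and 1 labelled uninjured, and all carry the same strain and cell labels, with no genotype or drug named. The description field of the uninjured library calls it a sham, so it was held apart from the sham controls in the first comparison and joined to them in the second. The labels do not say whether a library is 1 animal or a pool, so the p-values speak to library-to-library spread, part of which can be technical. The sources used here do not name the surface markers of the sort. Itgav and Cd200, which code for surface proteins used to select mouse skeletal stem cells, had counts in all 6 libraries. Ptprc, Tek, Thy1, Enpep and Eng code for proteins selected against in such sorts. All 5 had counts in injured 1 and 2, sham 1 and uninjured, 4 in injured 3 and 2 in sham 2. Their sum was 0.0107% of counts in injured 1 and 0.0286% in sham 1, against 0.00572% and 0.0107% for Itgav and Cd200. In the remaining libraries Itgav and Cd200 had the larger sum.

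Total counts were 46250870 to 51089267 in injured, 38382144 and 40483028 in sham control and 37506188 in the uninjured library. Libraries differed within groups more than the labels explain. Ribosomal RNA genes took 14.7% of counts in injured 1 and 15% in sham 1, against 2.89% to 5.32% in the other 4 libraries. A list of 10 neutrophil markers summed to 0.579%, 0.0686% and 0.000731% of counts in injured 1, 2 and 3, against 1.01% and 0.00206% in sham 1 and 2 and 0.0917% in the uninjured library. A list of 10 macrophage markers summed to 0.457%, 0.159% and 0.00394% in the injured libraries in the same order, against 0.299% and 0.00425% in sham and 0.0197% in uninjured. Of the 10 neutrophil markers, 10 had counts in every injured library, 10 and 5 in sham 1 and 2, and 8 in uninjured. Injured 1 and sham 1 therefore stood apart together in these sums, and member values are also given for these libraries and for the other 4 separately. The pair was not matched in other sums. Erythroid markers took 0.538% of counts in injured 1 and 3.74% in sham 1, and endothelial markers 0.0313% and 0.183%. In bulk RNA of sorted cells, fewer cells that express a gene and less of its RNA per cell cannot be told apart.

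Sequences are shown for Cdkn1a, whose injured libraries lay apart from all others, for Cdkn2a, with a few counts in injured libraries alone, and for Cdkn2b, its neighbour. They span the bases from 250 to 31 before each RefSeq transcription start on GRCm38.p6. Cdkn1a, the member with the smallest p in both comparisons, has an upstream and a downstream start. Cdkn2a has a distal start for the Arf transcript and a proximal start for the Ink4a transcript, 12427 bases apart, which share later exons and fall into 1 row of the table. Cdkn2b lies beside it, with its start 16413 bases from the distal Cdkn2a start. Capitals mark the motifs searched on both strands, which were the GC box with the letters GGGCGG, the CCAAT box, and the TATA box with the letters TATAAA. Sites of the E2F type were searched with the letters TTTCGCGC and with the letters TTTGGCGC. Other forms of this site were not searched, so lower case does not mean that they are absent. The last motif was a pair of CATG cores 6 bases apart, as in many p53 response elements.
Cdkn1a, upstream start, chr17:29090729-29090948, plus strand: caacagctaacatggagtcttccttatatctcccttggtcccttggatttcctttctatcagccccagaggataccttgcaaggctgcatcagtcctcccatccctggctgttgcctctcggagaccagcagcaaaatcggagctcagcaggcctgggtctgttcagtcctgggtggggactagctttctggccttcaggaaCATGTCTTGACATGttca
Cdkn1a, downstream start, chr17:29093519-29093738, plus strand: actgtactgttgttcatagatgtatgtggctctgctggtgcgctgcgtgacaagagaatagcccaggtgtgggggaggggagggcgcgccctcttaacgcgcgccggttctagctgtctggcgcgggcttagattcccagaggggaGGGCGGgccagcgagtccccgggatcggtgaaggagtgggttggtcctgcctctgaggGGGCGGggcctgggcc
Cdkn2a, distal start, chr4:89294650-89294869, minus strand: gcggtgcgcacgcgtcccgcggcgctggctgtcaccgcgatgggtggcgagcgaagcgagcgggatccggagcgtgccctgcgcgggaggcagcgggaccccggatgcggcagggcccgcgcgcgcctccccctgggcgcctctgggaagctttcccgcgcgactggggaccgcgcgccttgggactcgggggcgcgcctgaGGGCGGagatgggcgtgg
Cdkn2a, proximal start, chr4:89282223-89282442, minus strand: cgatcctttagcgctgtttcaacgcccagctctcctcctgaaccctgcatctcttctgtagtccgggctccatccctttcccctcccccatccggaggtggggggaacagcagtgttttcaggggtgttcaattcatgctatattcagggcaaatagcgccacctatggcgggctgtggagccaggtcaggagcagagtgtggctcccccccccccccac
Cdkn2b, chr4:89311063-89311282, minus strand: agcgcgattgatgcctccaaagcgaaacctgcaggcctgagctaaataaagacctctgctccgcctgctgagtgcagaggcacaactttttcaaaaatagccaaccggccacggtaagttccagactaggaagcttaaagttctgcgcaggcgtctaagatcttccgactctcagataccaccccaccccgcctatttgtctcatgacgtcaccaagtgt

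The upstream Cdkn1a window held the pair of p53-type cores, 48 bases before the start, a motif in 0.447% of all 32851 windows of this length. The downstream Cdkn1a window held GC boxes 104 and 46 bases before the start, and the distal Cdkn2a window held 1 at 48 bases; a GC box was in 28.5% of all windows. Its GC content was 78.6%, while that of the proximal window was 60% and that of the Cdkn2b window 51.8%. In GENCODE M21 the last bases of the distal window touch the first Cdkn2a exon, and the upstream Cdkn1a, proximal Cdkn2a and Cdkn2b windows overlap no exon. The downstream Cdkn1a window overlaps an exon of AC167363.2, a gene on the opposite strand that the count table does not hold. In the proximal Cdkn2a and the Cdkn2b window none of the searched letters occurred. RefSeq windows were at hand for 7 of the 10 members.

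The first comparison asked how the cell cycle entry genes of injured interfaces stood against sham controls. The values of all 3 D cyclins overlapped between the groups. Among the CDK inhibitors Cdkn1a (p21) was lower in every injured library than in either sham library, and Cdkn1c (p57) was higher in every injured library. Cdkn2a had counts in all 3 injured libraries and in neither sham library. By edgeR's quasi-likelihood test, adjusted over 16752 genes, 0 of the 10 members and 0% of all genes were below 0.05. At an unadjusted p under 0.05 by edgeR there was 1 member, Cdkn1a, on the lower side, where 2.2% of all genes lay (4.64% in either direction). DESeq2 and limma-voom called 0 members against sham control, where DESeq2 called 2.2% of all genes. Of the 9 members with counts in every library, injured and sham libraries did not overlap for 2, Cdkn1c higher and Cdkn1a lower, a share close to the 21% of all genes tested (11.9% higher, 9.12% lower). Cdkn2a passed the low-count filter through its injured counts alone, so its lack of overlap is not counted. The median log2 fold change was 0.25 over the members, also with Cdkn2a set against a floor of 3 sham counts, and 0.09 over all genes tested.

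**Figure D1:**
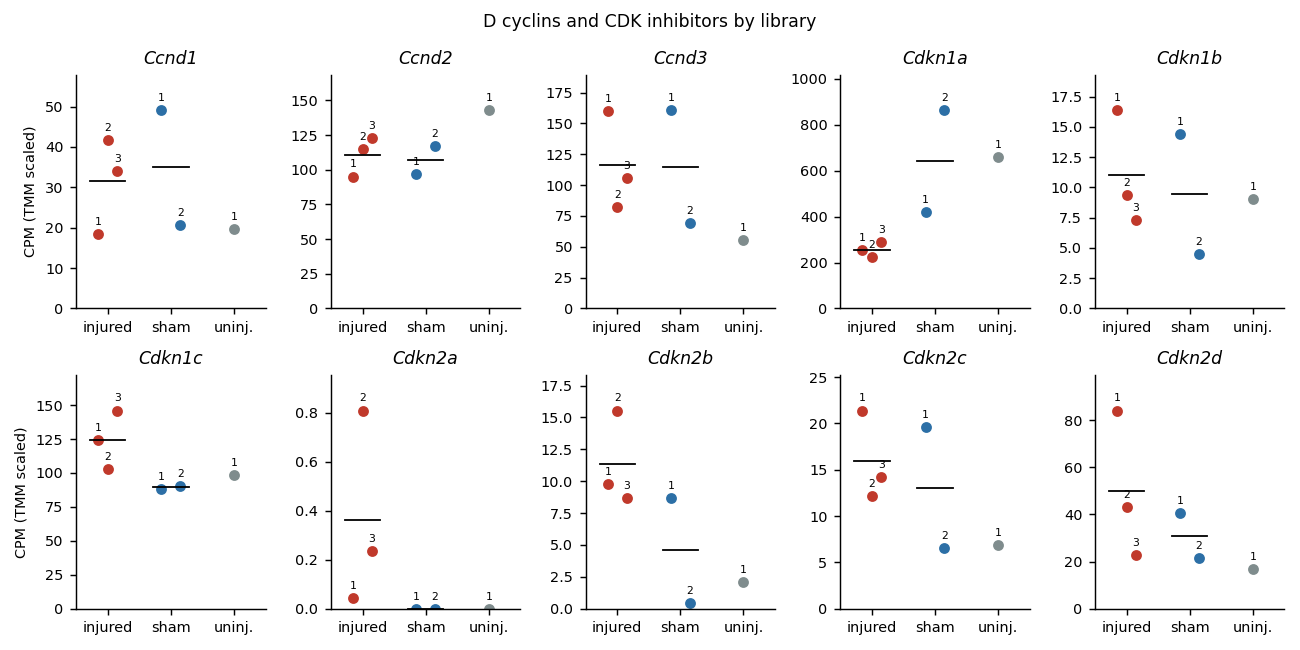
Counts scaled by TMM to a common library size (CPM; vertical axis from 0, linear) of the 10 members in each library, by group on the horizontal axis, with replicate numbers above the points and group means as lines. For Cdkn1a the injured points lie at 226 to 288 CPM, below the other 3 libraries, and for Cdkn1c at 103 to 146 CPM, above them.

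Ccnd1, the D cyclin most often induced by mitogens, had 18.5, 41.8 and 34.1 CPM in injured 1, 2 and 3, against 49.1 and 20.7 CPM in sham 1 and 2 and 19.7 CPM in the uninjured library. The highest and the lowest value of all were sham 1 and injured 1, the libraries rich in ribosomal RNA, and the groups overlapped. Its log2 fold change was -0.15 ± 0.59 (SE; edgeR adjusted p = 1.00, unadjusted p = 0.809), and left-out libraries moved it between -0.64 (without sham 2) and 0.60 (without sham 1). In the 4 libraries poor in ribosomal RNA, injured averaged 37.9 CPM and non-injured 20.2 CPM, a ratio of 1.87, whereas injured 1 had 0.378 times the level of sham 1. Ccnd1 was thus on opposite sides in the 2 sets of libraries, and a fit without injured 1 and sham 1 gave 0.87 (edgeR adjusted p = 0.592).

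Ccnd2, the D cyclin of B cells and pancreatic beta cells among others, was the steadiest member. It had 95.1, 115 and 123 CPM in injured 1, 2 and 3, against 97.3 and 117 CPM in sham and 143 CPM in uninjured. The highest library was 1.5 times the lowest, and the coefficient of variation over the 6 libraries was 15.3%. Its log2 fold change against sham was 0.05 ± 0.35 (SE; edgeR adjusted p = 1.00).

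Ccnd3, the D cyclin of many differentiating and blood-forming cells, had 160, 82.5 and 106 CPM in injured 1, 2 and 3, against 161 and 69.3 CPM in sham and 55.8 CPM in uninjured. Injured 1 and sham 1 were close to each other and above the rest, and these are the libraries with the largest neutrophil and macrophage sums. The log2 fold change was 0.01 ± 0.50 (SE; edgeR adjusted p = 1.00), at -0.47 without sham 2 and 0.74 without sham 1. In the other 4 libraries injured averaged 94.0 CPM and non-injured 62.5 CPM, a ratio of 1.5 with both injured libraries above. The part of blood cell RNA in these values was not tested. Bysl overlaps Ccnd3 and LTO1 overlaps Ccnd1 on the opposite strand, and no source used here states whether counting used strand. Bysl had 2242, 1106 and 1503 counts in injured, against 0 and 170 in sham and 703 in uninjured, and LTO1 had 101, 710 and 269 counts in injured, against 353 and 400 in sham and 86 in uninjured. Ccnd1 itself had 819, 2531 and 1592 counts in injured, against 1816 and 751 in sham and 811 in uninjured. Ccnd3 had 7062, 4998 and 4929 counts in injured, against 5947 and 2508 in sham and 2293 in uninjured. The overlaps are of whole gene spans. The part of reads of the overlapping genes in the Ccnd1 and Ccnd3 values was not tested.

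Levels between genes were compared per kb of the longest coding transcript of GENCODE M21, which is not known to be the annotation behind the counts. On this scale Ccnd3 led the D cyclins in every library, with 79.1%, 57.1% and 63.7% of the family in injured 1, 2 and 3, against 72.8% and 57.6% in sham and 48.7% in uninjured. Ccnd2 made up 15.7% to 26.5% in injured, 14.7% and 32.6% in sham and 41.6% in uninjured. Ccnd1 made up 5.18% to 16.3% in injured, against 12.6% and 9.75% in sham and 9.73% in uninjured. No D cyclin's share separated injured from sham libraries.

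Among the Cip/Kip genes, Cdkn1a codes for p21, the inhibitor induced by p53 and by many stress and growth signals, whose upstream window printed above holds the p53-type core pair. It had 256, 226 and 288 CPM in injured 1, 2 and 3, against 422 and 863 CPM in sham 1 and 2 and 659 CPM in the uninjured library. All injured libraries were below all others, and sham 1 was the nearest of them. A list of 8 Schwann cell markers also had its lowest sums in the injured libraries. It summed to 0.0515%, 0.0382% and 0.03% of counts in injured 1, 2 and 3, against 0.497% and 0.0757% in sham and 0.103% in uninjured. Among the non-injured libraries its order was the reverse of that of Cdkn1a, with sham 1 highest and sham 2 lowest. Of its 8 genes 2, Mbp and Pmp22, were lower in every injured library than in all others, as 7.07% of all genes tested were. In uninjured 6 of the 8 had counts, and Sox10 had none. The part of Schwann cell RNA in the member values was not tested. The means were 256 ± 31.0 CPM (SD, n = 3) in injured and 643 ± 312 CPM (SD, n = 2) in sham, a far wider spread in the sham pair. Its fitted log2 difference was -1.33 ± 0.44 (SE; edgeR unadjusted p = 0.0197, adjusted p = 0.865; DESeq2 adjusted p = 0.0715). It was -0.72 without sham 2 and -1.75 without sham 1. Injured 1 stood at 0.605 times sham 1, and injured 2 and 3 at 0.337 times the mean of sham 2 and uninjured.

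Cdkn1b codes for p27, an inhibitor that accumulates in resting cells and is removed through Skp2. It had 16.4, 9.35 and 7.28 CPM in injured 1, 2 and 3, against 14.4 and 4.53 CPM in sham and 9.01 CPM in uninjured. Injured 1 and sham 1 were again the highest, and the groups overlapped. The log2 fold change was 0.21 ± 0.93 (SE; edgeR adjusted p = 1.00) and was -0.39 without sham 2 and 1.28 without sham 1. The gene whose pattern over the 6 libraries was most like that of Cdkn1b was Srgn, a granule proteoglycan of blood cells (Pearson's r = 0.991 on log2(CPM + 1), a description from 6 libraries that share their depth and composition differences).

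Cdkn1c codes for p57, an imprinted inhibitor needed for growth plate chondrocytes to leave the cycle. It had 124, 103 and 146 CPM in injured 1, 2 and 3, against 88.5 and 90.4 CPM in sham and 98.8 CPM in uninjured. Every injured library exceeded every other library, with injured 2 and the uninjured library closest. Injured minus sham, the log2 fold change was 0.48 ± 0.36 (SE; edgeR unadjusted p = 0.226, adjusted p = 0.865) and lay between 0.31 and 0.61 over 14 alternatives. Injured 1 was 1.4 times sham 1, and injured 2 and 3 averaged 1.32 times sham 2 and uninjured, so the difference was of like size in both sets of libraries.

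On the per-kb scale Cdkn1a made up 64.1%, 65.9% and 63.8% of the Cip/Kip family in injured 1, 2 and 3, against 80.3% and 89.5% in sham and 85.4% in uninjured. Cdkn1c made up 34.0%, 32.9% and 35.4% in injured, against 18.4% and 10.3% in sham and 14.0% in uninjured. These shares are ratios within a library and do not depend on its scaling, though they do on the lengths used. The injured libraries lay close together and apart from the rest. Cdkn1b made up at most 1.88%, so the shares in effect set Cdkn1a against Cdkn1c. Cdkn1a was already lower and Cdkn1c higher in every injured library, so the separation of the shares follows from those values. Over all 7 inhibitors, Cdkn1a took 46.1% to 56.5% in injured libraries and 68.7% to 86.2% in the others.

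**Figure D2:**
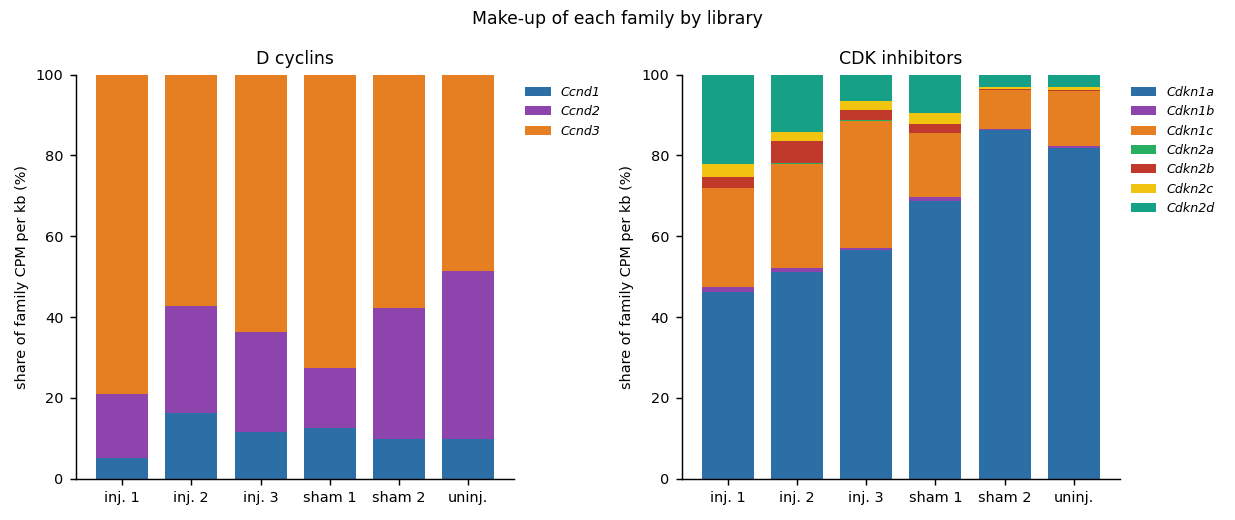
Share of each gene (vertical axis, percent of the family's CPM per kb) among the D cyclins (left) and the CDK inhibitors (right) in each library along the horizontal axis. Cdkn1a fills 46.1% to 56.5% of the inhibitor bars of injured libraries and 68.7% to 86.2% of the others, while the D cyclin bars do not separate the groups.

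Of the Ink4 genes, Cdkn2a yields p16 (Ink4a) and, in another reading frame, p19 (Arf), which acts through p53. It was near the limit of detection, with 2, 49 and 11 counts in injured 1, 2 and 3 and no count in the sham and uninjured libraries. In CPM the injured libraries had 0.0453, 0.809 and 0.236, a mean of 0.363 ± 0.398 (SD, n = 3), so injured 2 carried most of it. Against a floor of 3 counts over the sham libraries (0.041 CPM), the injured mean was 8.87-fold higher, and 3.43-fold without injured 2. The floor covers counting error in the sham libraries only, so these are not lower bounds on the fold. Injured 1 alone, at 0.0453 CPM, was near the floor. The fitted test gave an unadjusted p of 0.115 and an adjusted p of 0.865 by edgeR, for a gene that passed the filter through its injured counts alone. The counts do not say which of the starts printed above was in use.

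Cdkn2b codes for p15, an inhibitor induced by TGF-beta in epithelial cells. It had 9.75, 15.5 and 8.67 CPM in injured 1, 2 and 3, against 8.70 and 0.442 CPM in sham and 2.12 CPM in uninjured. Injured 3 lay just below sham 1, so the groups overlapped through 1 pair of libraries. Cdkn2b also had the widest spread among members detected everywhere, its highest library being 35.2 times its lowest. The log2 fold change was 1.31 ± 1.38 (SE; edgeR unadjusted p = 0.375, adjusted p = 0.922), and it was 0.38 without sham 2 and 4.67 without sham 1. In the libraries poor in ribosomal RNA, injured averaged 12.1 CPM and non-injured 1.28 CPM, a ratio of 9.46, whereas injured 1 was 1.12 times sham 1.

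Cdkn2c (p18) is an Ink4 inhibitor known to restrain hematopoietic stem cells, and it had 21.4, 12.2 and 14.2 CPM in injured 1, 2 and 3, against 19.6 and 6.54 CPM in sham and 6.84 CPM in uninjured. Only sham 1 among the non-injured libraries reached the injured range. Its log2 fold change was 0.29 ± 0.79 (SE; edgeR adjusted p = 0.993), at -0.30 without sham 2 and 1.28 without sham 1, with a ratio of 1.97 in the libraries poor in ribosomal RNA and of 1.09 between injured 1 and sham 1. Cdkn2c and Ccnd3 had like patterns over the 6 libraries (Pearson's r = 0.960, as a description).

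Cdkn2d (p19Ink4d), which like other Ink4 proteins binds Cdk4 and Cdk6, had 84.0, 43.0 and 22.7 CPM in injured 1, 2 and 3, against 40.6 and 21.3 CPM in sham and 17.0 CPM in uninjured. Injured 1 was the highest of all, and injured 3 lay between the sham libraries. For Cdkn2d the log2 fold change was 0.69 ± 0.66 (SE; edgeR adjusted p = 0.903), at 0.08 without injured 1 and 1.23 without sham 1. A close pattern was that of Tagln2, an actin-binding protein gene (Pearson's r = 0.996 over 6 libraries, as a description). Per kb Cdkn2d was the leading Ink4 gene in every library, at 56.5% to 79.0% of the family in injured, 66.8% and 83.5% in sham and 73.6% in uninjured.

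Ordered by mean CPM per kb over the 6 libraries, Cdkn1a (217.5 ± 123.5, SD) stood first, followed by Cdkn1c (57.1 ± 11.8), Ccnd3 (49.99 ± 21.5), Cdkn2d (26.8 ± 17.5), Ccnd2 (18.2 ± 2.78), Ccnd1 (8.20 ± 3.47), Cdkn2c (5.45 ± 2.52), Cdkn2b (5.42 ± 3.96), Cdkn1b (2.23 ± 0.978) and Cdkn2a (0.203 ± 0.358). Cdkn1a was above every other member in each library. The ranges of the neighbours from Cdkn1c to Cdkn2d, from Cdkn2d to Ccnd2, and from Ccnd1 to Cdkn1b overlapped, so their order is not fixed beyond their spread. By pattern over the 6 libraries (Pearson's r on log2(CPM + 1), as a description), a tested gene close to Cdkn1a was Gprc5a (0.989), and those most like Cdkn1c were Mogs (0.984) and Odaph (0.979). For the D cyclins the nearest were Sync for Ccnd1 (0.995), Mbtps2 for Ccnd2 (0.998) and Nrbp1 for Ccnd3 (0.992).

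The second comparison set the injured libraries against the 2 sham and the uninjured library together, which shares its samples with the first. Cdkn1a averaged 256 ± 31.0 CPM in injured and 648 ± 221 CPM in non-injured libraries (SD, n = 3 each), and Cdkn1c 124 ± 21.4 CPM and 92.6 ± 5.49 CPM. The log2 fold change of Cdkn1a was -1.34 ± 0.36 (SE; edgeR unadjusted p = 0.00730, adjusted p = 0.452), 222nd by p among 14110 genes. By DESeq2 it passed (adjusted p = 0.00749), as 2.49% of all genes did. It was the only member called there, and edgeR called 0 members and 0% of all genes, with 7.43% of all genes at an unadjusted p under 0.05 (3.71% higher, 3.72% lower, Cdkn1a among the lower). The fold of Cdkn1c was 0.42 ± 0.28 (SE; edgeR adjusted p = 0.849).

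For Cdkn1a and Cdkn1c, all 3 injured libraries lay on one side of the other 3. The 2-sided exact permutation test on log2(CPM + 1) gave p = 0.1 for each, the smallest it can give in 3 against 3. Cdkn2a also gave 0.1 by this test, but from 2, 49 and 11 counts against none, so it is not counted as a separation. The other 7 of these 10 tests gave 0.2 to 1. Cdkn2a had too few counts to enter this fit, so 9 members were tested. Of these, Cdkn1a was lower and Cdkn1c higher without overlap, where 7.07% of all genes were lower and 9.23% higher in that way. The folds of Ccnd1, Ccnd2 and Ccnd3 were 0.07 ± 0.53, -0.11 ± 0.29 and 0.28 ± 0.48 (SE). Those of Cdkn1b, Cdkn2b, Cdkn2c and Cdkn2d were 0.23 ± 0.75, 1.59 ± 1.15, 0.53 ± 0.68 and 0.92 ± 0.58 (SE; edgeR adjusted p from 0.834 to 0.998 over these 7 genes).

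**Figure D3:**
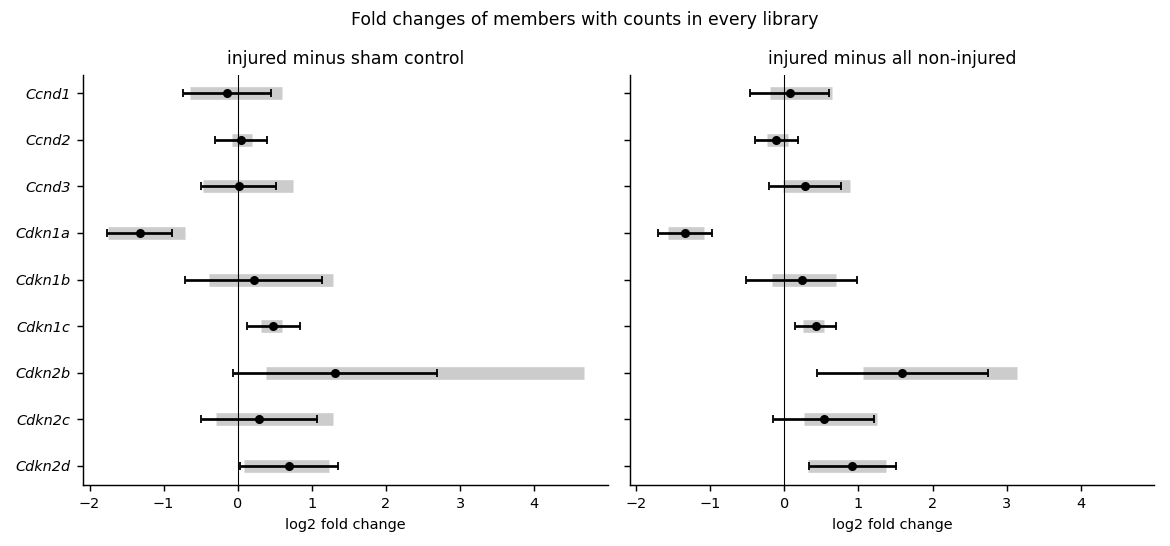
Fitted log2 fold changes (horizontal axis) of the 9 members with counts in every library (vertical axis), injured minus sham control on the left and injured minus all non-injured on the right. Points are edgeR folds, bars 1 SE and grey bands the range when each library is left out in turn. Cdkn1a lies below 0 throughout both bands, Cdkn1c, Cdkn2b and Cdkn2d lie above 0 throughout both, and the Ccnd1 bands span 0.

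A list of 45 genes around the members covered their kinases, Rb family proteins, E2F factors and the cyclins that act later. Against sham control 44 were tested, 0 passed by edgeR, and 8 were higher and 1 lower at an unadjusted p under 0.05 (2.44% and 2.2% of all genes). DESeq2 called 4, all higher, and 2.2% of all genes in either direction. The median log2 fold change was 0.65 over the list and 0.09 over all genes. Injured libraries lay wholly above sham for 14 of the 44 and wholly below for 4 (11.9% and 9.12% of all genes). Against all non-injured libraries these counts were 11 and 3 (9.23% and 7.07% of all genes). Cdk4, the partner kinase of D cyclins, had 179, 155 and 153 CPM in injured 1, 2 and 3, against 89.8 and 104 CPM in sham and 70.3 CPM in uninjured. Every injured library exceeded every other, and the log2 fold change was 0.75 ± 0.35 (SE; edgeR adjusted p = 0.865). Its relative Cdk6 had 2.26, 7.63 and 26.6 CPM in injured, against 6.87 and 7.76 CPM in sham and 12.4 CPM in uninjured, with overlap in both directions.

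Among genes that act after the D cyclin step, DESeq2 called 4 against sham control that edgeR did not call. Cyclin E2 (Ccne2), a Cdk2 partner at the start of S phase, had 10.3, 5.93 and 5.87 CPM in injured, against 0.514 and 0.331 CPM in sham and 1.07 CPM in uninjured (DESeq2 adjusted p = 0.00482). Cyclin A2 (Ccna2), which acts in S phase and at the entry into mitosis, had 52.7, 68.4 and 45.2 CPM in injured, against 6.68 and 1.08 CPM in sham and no count in uninjured (DESeq2 adjusted p = 0.00222). Cks1b, the cofactor through which Skp2 recognises p27, had 75.4, 64.7 and 44.2 CPM in injured, against 7.11 and 16.7 CPM in sham and 20.4 CPM in uninjured (DESeq2 adjusted p = 0.0103). For these 3 genes the injured libraries lay wholly above the others, and each had an edgeR adjusted p of 0.865. Against all non-injured libraries the DESeq2 adjusted p was 0.0195 for Ccne2 and 0.0161 for Cks1b, but 0.0608 for Ccna2 and 0.654 for Skp2. Skp2 itself was the DESeq2 call with overlap, at 0, 7.22 and 15.3 CPM in injured against no count in sham and 0.974 CPM in uninjured. No test of the difference between these folds and those of the D cyclins was made.

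Cyclin B1 (Ccnb1), the mitotic cyclin, stood at 69.4 ± 17.8 CPM in injured (SD, n = 3) and 12.5 ± 11.4 CPM in sham (SD, n = 2), without overlap. E2f6, a repressive E2F, stood at 15.98 ± 8.42 CPM in injured (SD, n = 3) and 2.28 ± 1.97 CPM in sham (SD, n = 2), but at 31.4 CPM in uninjured. Fbxo31, an F-box protein known to target cyclin D1 for degradation in human cells, stood at 19.7 ± 1.94 CPM in injured (SD, n = 3) and 63.9 ± 38.6 CPM in sham (SD, n = 2), lower in every injured library. Against these, Rb1 (15.7 ± 9.03 CPM in injured, 14.4 ± 2.74 CPM in sham), Cdk2 (23.8 ± 9.34 and 20.2 ± 8.52 CPM) and Ccne1 (9.78 ± 3.27 and 3.76 ± 4.73 CPM) overlapped between groups (SD, n = 3 and 2). E2f1 had 58.5, 17.4 and 20.1 CPM in injured, against 17.1 and 14.8 CPM in sham and 0.755 CPM in uninjured, with injured 1 far above the other injured libraries.

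Of 20 proliferation markers, 18 had a log2 fold change above 0, with 10 higher and 0 lower at an unadjusted p under 0.05 by edgeR, 0 past adjustment and 2 called by DESeq2. Over all 16752 genes 8997 were above 0, 2.44% were higher and 2.2% lower at that p, and DESeq2 called 2.2%. The median log2 fold change was 1.57 over the markers and 0.09 over all genes. Ccna2 and Ccnb1 stand in this list too. Birc5, an inhibitor of apoptosis needed in mitosis, stood at 50.6 ± 17.0 CPM in injured and 9.53 ± 3.39 CPM in sham, and Mcm2, a subunit of the replicative helicase, at 31.9 ± 15.3 and 7.26 ± 2.92 CPM (SD, n = 3 and 2). Mki67 had 33.4, 82.5 and 74.8 CPM in injured 1, 2 and 3, against 32.8 and 7.46 CPM in sham and 3.97 CPM in uninjured. Injured 1 and sham 1 were nearly equal in Mki67 (ratio 1.02), while the 4 remaining libraries differed by a ratio of 13.8. The other markers named here did differ within that pair, Ccna2 by a ratio of 7.89. Ccnb1 had 88.2 and 20.6 CPM in injured 1 and sham 1, Birc5 40.9 and 7.14 CPM, and Mcm2 48.0 and 9.33 CPM.

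Since Cdkn1a is a p53 target, p53 and 24 genes it controls were read beside it. Against sham control 16 of 25 were below 0, with 3 lower and 0 higher at an unadjusted p under 0.05 by edgeR, 0 past adjustment and 0 called by DESeq2, and a median log2 fold change of -0.35. Of all genes 2.2% were lower at that p, and the median over the list was -0.06 against all non-injured libraries. The 3 lower genes were Plk3 (26.4 ± 2.61 CPM in injured, 63.2 ± 8.26 CPM in sham), Btg2 (177 ± 50.8 and 454 ± 222 CPM) and Plk2 (36.1 ± 1.78 and 86.2 ± 48.7 CPM; SD, n = 3 and 2), which are also induced early by growth factors and stress. Not every target lay on that side. Ccng1 stood at 57.2 ± 32.8 CPM in injured and 24.9 ± 22.4 CPM in sham, with overlap. Mdm2, the feedback inhibitor of p53, was about equal, at 46.0 ± 30.3 and 46.9 ± 52.2 CPM (SD, n = 3 and 2). Bax had 71.4, 84.4 and 53.7 CPM in injured, against 43.9 and 51.9 CPM in sham and 39.8 CPM in uninjured. Against sham control 3 genes of the list were higher and 5 lower without overlap (11.9% and 9.12% of all genes). Trp53 itself had 74.1, 67.5 and 56.3 CPM in injured, against 38.5 and 48.0 CPM in sham and 44.4 CPM in uninjured, higher in every injured library (edgeR adjusted p = 0.865). Perp had 0, 0 and 1.61 CPM in injured, against 16.6 and 12.8 CPM in sham and 7.42 CPM in uninjured, lower in every injured library.

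Of 14 genes linked to quiescence, 11 were below 0, with 2 lower and 0 higher at an unadjusted p under 0.05 by edgeR, 0 past adjustment, 0 called by DESeq2, and a median log2 fold change of -0.97 (2.2% of all genes lower, all-gene median 0.09). Foxo1, a transcription factor of resting cells known to act on Cdkn1b, had 39.8, 92.3 and 71.3 CPM in injured, against 122 and 347 CPM in sham and 331 CPM in uninjured. Its injured libraries were all below the other 3. That held for 4 of the 14 genes (7.07% of all genes), and 0 were wholly above (9.23% of all genes). Txnip, which restrains glucose uptake, had 109, 76.7 and 64.7 CPM in injured, against 381 and 88.6 CPM in sham and 308 CPM in uninjured, with sham 2 inside the injured range. Against all non-injured libraries edgeR again called 0 genes of these 4 lists. At an unadjusted p under 0.05 by edgeR, 7 of 44 tested genes of the Rb-E2F axis were higher and 2 lower. At that p 3 of 25 p53 genes and 5 of 14 quiescence genes were lower, and 7 of 20 proliferation markers were higher. DESeq2 called 2, 2, 1 and 2 genes of these lists in that order. Of all genes tested against all non-injured libraries, 3.71% were higher and 3.72% lower at that p, and DESeq2 called 2.49%.

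**Figure D4:**
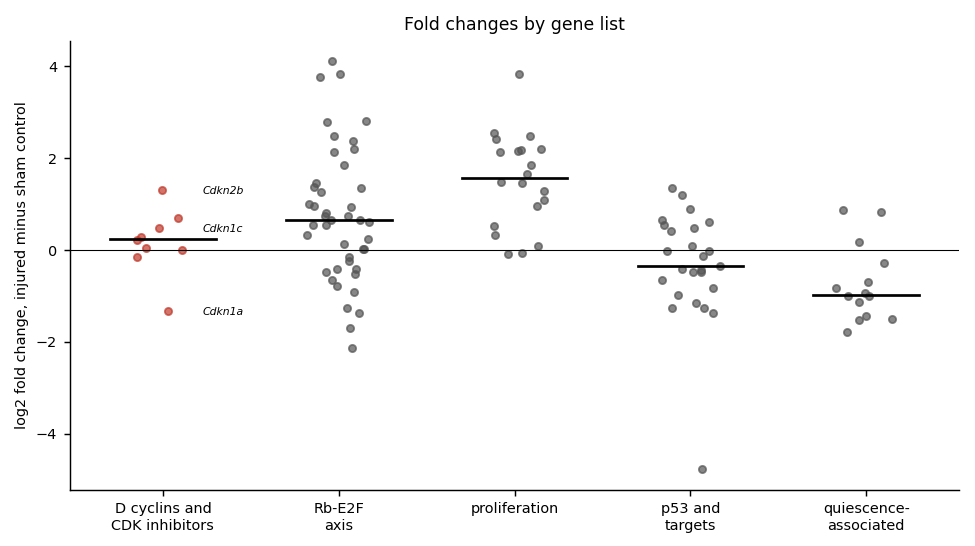
Fitted log2 fold change (vertical axis, injured minus sham control) of each gene in 5 lists along the horizontal axis, with the list medians as lines. Genes with no count in a whole group, such as Cdkn2a and Skp2, are not drawn as points. The members' median is 0.25, against 0.65 for the Rb-E2F axis, 1.57 for proliferation, -0.35 for p53 and its targets and -0.97 for quiescence-associated genes.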

How the data were processed

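The deposited table holds whole-number counts per gene symbol for 6 libraries, made by the authors, and its column totals differ. The tools named per the submitters' processing notes are DESeq, DESeq2 (1.22.2) and Salmon (0.12.0), with builds GRCm38.p6 and mm9, all without a stated role; how genes were summed and rounded and whether strand was used is not given in those sources. Per the labels, cDNA came from 150 pg of RNA by a low-input kit, so rare transcripts can drop out, and without molecular identifiers intervals and floors cover counting error only. Columns were matched to samples by the description field.

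From the deposited counts, CPM were computed with TMM factors of the fit against sham control. Genes passed edgeR's filterByExpr (minimum count 10) and were tested with edgeR 4.0.16 (R 4.3.3), quasi-likelihood F test, Benjamini-Hochberg over all genes, threshold 0.05, with all 6 libraries as 3 groups (3 residual degrees of freedom) or 3 against 3 (4). SEs come from the F statistic. All 10 members passed the filter in the first fit and 9 in the second. DESeq2 1.42.0, limma-voom (limma 3.58.1), other scalings, no filter, left-out libraries and a replicate block were alternatives. The fit was tested on simulated data. Named genes were all members, up to 6 of each list with the smallest p, and 11 further cell cycle and p53 genes; other genes were chosen after their values were seen. Members and lists were chosen with earlier results of these data known. Promoter sequences come from RefSeq (GRCm38.p6) and lengths from GENCODE M21. Lists were described by counts and medians only. Some genes that this rule names are not reported here.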

Additional observations from a re-analysis of the deposited data

How the results depend on the processing

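No gene passed by edgeR in either comparison, whereas DESeq2 called 369 genes against sham control and 345 against all non-injured libraries, limma-voom 1 and 7, and edgeR without a low-count filter 3 and 5. DESeq2 called 4 genes of the Rb-E2F axis against sham control, and against all non-injured libraries 2 of that axis, 2 p53 targets and 1 member, Cdkn1a. These are the counts that differ from 0 among the alternatives run, and the cause was not tested.

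Of 255 member folds recomputed under alternatives, 226 kept direction and side of the threshold, 28 changed sign and 1 (Cdkn1a by DESeq2 against all non-injured) passed. Cdkn1a, Cdkn1c, Cdkn2b and Cdkn2d kept their sign in all of them. Against sham control, relative log expression scaling gave -0.0234 for Ccnd2 and -0.0679 for Ccnd3, DESeq2 -0.0233 and -0.0679, library size alone 0.0227 for Ccnd1, the 5 injured and sham libraries alone -0.0108 for Ccnd3, and leaving out injured 1 and sham 1, an alternative added after seeing the data, 0.87 for Ccnd1. Against all non-injured libraries, relative log expression scaling gave -0.0057 and DESeq2 -0.0056 for Ccnd1. Leaving out 1 library at a time moved the folds against sham control from -0.64 to 0.60 for Ccnd1, -0.0828 to 0.19 for Ccnd2, -0.47 to 0.74 for Ccnd3, -0.39 to 1.28 for Cdkn1b and -0.30 to 1.28 for Cdkn2c. Against all non-injured libraries the ranges were -0.19 to 0.64 for Ccnd1, -0.23 to 0.0445 for Ccnd2, -0.0206 to 0.89 for Ccnd3 and -0.17 to 0.70 for Cdkn1b. With library size alone all genes together had a median of 0.23 against sham control, and the unadjusted calls were 538 higher and 287 lower, against 409 and 369 with TMM.

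The titles give sham and injured libraries replicate numbers, but nothing in them ties equal numbers together. Deviations of same-numbered libraries from their group means correlated at 0.353 and 0.0107 across genes. With the replicate block on the first 2 numbers, 0 genes and 0 members passed, Cdkn1a stood at -1.35 and Ccnd2 at -0.0555. The fit against sham control has 3 residual degrees of freedom, which limits its precision, and Cdkn2a, at 2 to 49 counts in the injured libraries, is limited by depth.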
